A study of Mus musculus with 2 samples.

Results

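The miRNAs described here are the members of the miR-10 and miR-196 families and miR-615-3p, whose genes lie in the Hox clusters. They were chosen by name and not by a rule on their signals, but with earlier results of these data known. They comprise mmu-miR-10a-5p, mmu-miR-10b-5p, mmu-miR-196a-5p, mmu-miR-196b-5p and mmu-miR-615-3p (written below without the species prefix). These are 5 of the 1881 mouse miRNAs on the array. Exosomes, small extracellular vesicles that carry RNA, were isolated by differential ultracentrifugation from the supernatants of 2 murine cell lines. KPC cells came from a pancreatic tumour of mice with the alleles KrasLSL-G12D/+ and Trp53LSL-R172H/+ and with Pdx1-Cre, in which Cre is driven by a pancreatic promoter, and were kept in RPMI-1640 medium with 20% FBS. MPDC cells, a purchased pancreatic ductal epithelial line for which the labels give no engineered allele, were kept in DMEM with 10% FBS and served as the control. Per the study's methods, the medium was exchanged for one with exosome-free FBS before the supernatants were collected. Each cell line is 1 line, and the exosomes of each were measured on 1 Agilent mouse miRNA array with the dye Cy3, labelled from 0.5 µg of RNA per the labels. The differences therefore have no replicate check, no test across samples was possible, and the cell line, the medium and the array cannot be told apart.

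Hox genes encode transcription factors that give cells their position along the body axis, and they are arranged in clusters on separate chromosomes. miRNA genes lie between them and are often transcribed together with the neighbouring Hox genes. Mature miRNAs bind target mRNAs mainly through their seed, the bases near the 5′ end. miR-196 directs cleavage of the Hoxb8 mRNA, and members of the miR-10 family also have Hox mRNAs among their targets. miR-10b and miR-196a have both been studied in pancreatic and other carcinomas.

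The mature sequences, from RefSeq (GRCm38.p6), are shown because each pair of partners carries the same seed and differs at a single base outside it. Capitals mark the seed, bases 2 to 8 counted from the 5′ end.
miR-10a-5p: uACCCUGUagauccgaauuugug
miR-10b-5p: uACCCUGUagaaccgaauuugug
miR-196a-5p: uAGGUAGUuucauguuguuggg
miR-196b-5p: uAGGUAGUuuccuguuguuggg
miR-615-3p: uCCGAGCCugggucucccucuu

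From miR-10a-5p to miR-10b-5p the substitution is U12A, and from miR-196a-5p to miR-196b-5p it is A12C, both counted from 1 at the 5′ end. The array reads each miRNA with 2 or 4 probes of different lengths. The longest probe of each miRNA is shown, because partners are told apart by 1 probe base, which is in capitals.
miR-10a-5p probe: cacaaattcggAtctacaggg
miR-10b-5p probe: cacaaattcggTtctacaggg
miR-196a-5p probe: cccaacaacaTgaaactaccta
miR-196b-5p probe: cccaacaacaGgaaactacc

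Each of these probes is the exact complement of its own miRNA over the bases it covers. These are all 22 bases for miR-196a-5p and those from base 3 on for the others. How much of a partner's signal a probe also picks up was not tested. In both pairs the partners gave clearly different differences between the arrays.

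The files place the probes on mm9 as follows. The miR-10a-5p probes lie at chr11:96178503-96178522, and RefSeq lists Mir10a within the span of Hoxb3, with Hoxb5 and Hoxb4 as the protein-coding genes on either side. The miR-10b-5p probes lie at chr2:74564134-74564153, and Mir10b lies within the spans listed for Hoxd3 and Hoxd4. miR-196a-5p is produced from 2 genes. Its probes match chr11:96126501-96126522, where Mir196a-1 lies between Hoxb13 and Hoxb9, and chr15:102803796-102803817, where Mir196a-2 lies between Hoxc10 and Hoxc9. The 5p signal is therefore the sum of both genes. The miR-196b-5p probes lie at chr6:52180098-52180116, where Mir196b lies between Hoxa9 and Hoxa10. The files used here give no position for the miR-615-3p probes, and RefSeq lists Mir615 within Hoxc5. The gene neighbours were read by name from GRCm38.p6, and no coordinates of that build are given.

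To give 1 value per miRNA, total signals were summed over the probes that exceeded 3 times their scanner error, and are given in arbitrary units. Values after ± are the scanner error, which covers the measurement on the array and not the variation between exosome preparations. A miRNA with no such probe is called not detected. Across the array, 772 miRNAs (41.0%) were detected in KPC-exosomes, 1031 (54.8%) in MPDC-exosomes and 726 in both. Signals were lower in KPC-exosomes for 591 of the 726, and the median log2 difference, KPC-exosomes minus MPDC-exosomes, was -1.37 without normalization and 0.53 after quantile normalization, the setting that gives the deposited values. The 4 spike-in controls differed by -0.31 to 0.38 (log2, no normalization). Both arrays were labelled from 0.5 µg of RNA per the labels, so the signals do not measure the number of exosomes or the miRNA per exosome. What lowered the signals in KPC-exosomes was not tested. For the 4 members detected on both arrays, the difference is therefore also given relative to the median, a value that moves little between these 2 settings. Marker lists also differed between the arrays. The list of 11 pluripotent-cell miRNAs summed to 657 in KPC-exosomes, where 6 were detected, and to 484290 in MPDC-exosomes, where all 11 were. Of the 5 pancreas miRNAs, miR-216a-5p, miR-216b-5p and miR-375-3p were detected in neither preparation. All 7 epithelial miRNAs were detected in MPDC-exosomes and 5 of 7 in KPC-exosomes, but so were all 6 mesenchymal miRNAs in MPDC-exosomes, so that detection of the epithelial list does not single out a ductal line.

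**Figure D1:**
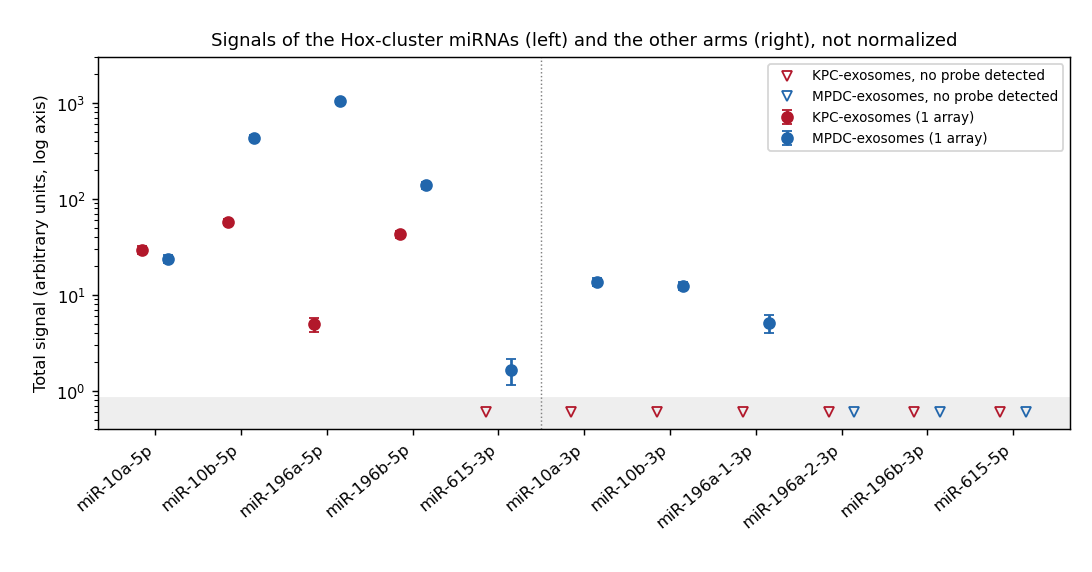
Total signal of each Hox-cluster miRNA and of the other arms of the same precursors on the array of KPC-exosomes (red) and of MPDC-exosomes (blue), without normalization, on a log axis. Bars are scanner errors, and open triangles in the grey band, placed at no measured height, mark miRNAs with no detected probe. miR-196a-5p shows the widest gap between the arrays, 4.92 against 1036, and miR-10a-5p the narrowest, 29.4 against 23.6.

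miR-196a-5p was bright in MPDC-exosomes and close to the detection limit in KPC-exosomes. KPC-exosomes gave a signal of 4.92 ± 0.839 and MPDC-exosomes one of 1036 ± 57.1. The log2 difference was -7.72 without normalization, a 211-fold lower signal, and -5.95 after quantile normalization, a 61.7-fold lower signal. The scanner error of the difference was 0.26 (log2). Relative to the median of these 726 miRNAs the difference was -6.35 and -6.48 under these settings, and 9 of the 726 had a lower one under either setting. Such ranks, here and for the other members, leave out miRNAs detected on 1 array only. These were 305 in MPDC-exosomes alone, some of which may be reduced more strongly, and 46 in KPC-exosomes alone. The size of the fold rests on a dim signal in KPC-exosomes. Of the 4 probes, 3 passed there, at 3.30, 3.57 and 3.33 errors, and the shortest, of 19 nt, did not, at 2.32 errors. All 4 probes passed in MPDC-exosomes. The scanner software marked 1 of the 30 spots of miR-196a-5p as well above background in KPC-exosomes and 30 of 30 in MPDC-exosomes. The fold is therefore also given as a bound, with each probe in KPC-exosomes set to the lowest total signal of any probe with at least 50% of its spots well above background, which makes 8.01 over the 4 probes. For the normalized bound this limit was placed on the normalization curve of the array. Against that limit miR-196a-5p was at least 129-fold lower in KPC-exosomes without normalization and at least 42.8-fold lower after quantile normalization.

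The individual spots showed the same gap. In KPC-exosomes the 30 spots lay between 4.35 and 16.4, and in MPDC-exosomes between 327 and 2863. No probe had overlapping spots. Against the same limit per probe, the 4 probes were lower in KPC-exosomes by at least 27.8-fold (19 nt), 142-fold (20 nt), 172-fold (21 nt) and 175-fold (22 nt) without normalization. Spots of an array share 1 labelled RNA, so their spread is technical. How many of all probes on the array have spots that do not overlap was not counted. A lack of overlap, here and for the other members, is therefore not read as particular to these miRNAs.

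miR-196b-5p, with the same seed, was well measured on both arrays and followed the bulk of the miRNAs. KPC-exosomes gave 42.6 ± 3.64 and MPDC-exosomes 140 ± 11.5. The log2 difference was -1.71 (scanner error 0.17) without normalization, which is 3.28-fold lower in KPC-exosomes, and 0.18 after quantile normalization. The direction of miR-196b-5p thus depended on the normalization. Measured from the median it was -0.34 and -0.35, with 293 and 302 of the 726 miRNAs lower, so that it lay near the middle of all miRNAs under both. On the 19 nt probe the spots lay between 31.7 and 43.9 in KPC-exosomes and between 96.4 and 124 in MPDC-exosomes. On the 20 nt probe they lay between 97.8 and 128 and between 350 and 434, and neither probe had overlapping spots before normalization.

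The change of miR-196a-5p thus exceeded that of miR-196b-5p on the same pair of arrays. The difference of their log2 differences was -6.00 without normalization (scanner error 0.31) and -6.13 after quantile normalization, or 64.1-fold and 70.0-fold. With miR-196a-5p at its limit the values were -5.30 and -5.60, which makes the excess at least 39.4-fold and at least 48.5-fold.

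Relative to the median of all miRNAs, miR-10a-5p and miR-10b-5p differed between the exosomes in opposite directions. miR-10b-5p was lower in KPC-exosomes, with a signal of 57.9 ± 4.52 against 432 ± 32.3 in MPDC-exosomes. The log2 difference was -2.90 (scanner error 0.16), a 7.47-fold lower signal, without normalization. After quantile normalization it was -1.10, or 2.14-fold lower, just past the 2-fold threshold. Relative to the median the difference was -1.53 and -1.63, and 149 and 145 of the 726 miRNAs had a lower one. The direction was the same under each normalization tried, but a difference of this size relative to the median was not rare on these arrays. The 2 probes of miR-10b-5p gave -2.91 and -2.89. On the 20 nt probe the spots lay between 58.8 and 82.8 in KPC-exosomes and between 495 and 553 in MPDC-exosomes, and on the 21 nt probe between 117 and 158 and between 976 and 1101, with no overlap.

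miR-10a-5p gave nearly the same signal on both arrays before normalization, 29.4 ± 2.56 in KPC-exosomes and 23.6 ± 2.30 in MPDC-exosomes. The log2 difference of 0.32 was 1.71 times its scanner error of 0.19. After quantile normalization it was 2.12, or 4.34-fold higher in KPC-exosomes. The normalization added 1.80 to this miRNA, so that its call as higher rests on the adjustment for the lower signals of the whole array. Measured from the median it was 1.69 and 1.59, and 113 and 170 of the 726 miRNAs had a higher difference. The spots overlapped on both probes. On the 20 nt probe they lay between 26.1 and 49.6 in KPC-exosomes, with a median of 35.8, and between 18.1 and 30.8 in MPDC-exosomes, with a median of 23.8. On the 21 nt probe the medians were 69.7 and 60.4, with ranges of 59.8 to 77.3 and 49.8 to 68.2. The KPC-exosomes had the higher median on each probe, and all 30 spots were well above background on either array.

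miR-10b-5p was thus lower in KPC-exosomes relative to miR-10a-5p. The difference of their log2 differences was -3.22 (scanner error 0.24) both without normalization and after quantile normalization, or 9.34-fold and 9.30-fold. These miRNAs share a seed and lie in different Hox clusters, Hoxd and Hoxb.

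**Figure D2:**
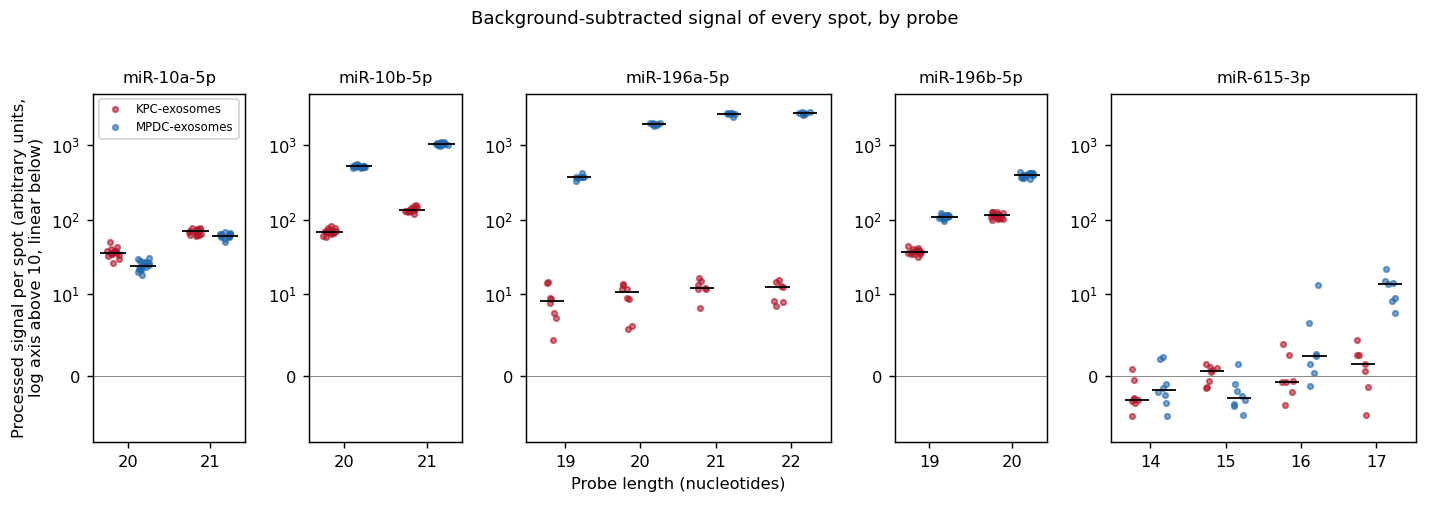
Background-subtracted signal of each spot, by probe length in nucleotides, for KPC-exosomes (red) and MPDC-exosomes (blue), without normalization. The axis is logarithmic above 10 and linear below, lines are medians, and spots marked as outliers are included. The spots of miR-10b-5p, miR-196a-5p and miR-196b-5p do not overlap between the arrays, those of miR-10a-5p overlap on both probes, and those of miR-615-3p separate on the 17 nt probe alone. How many of all probes on the array separate in this way was not counted.

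miR-615-3p was not detected in KPC-exosomes, where none of its 4 probes passed and their sum was -0.269. In MPDC-exosomes 1 of 4 probes passed, and the signal was 1.65 ± 0.496, or 3.33 errors. That probe is the longest, of 17 nt, with the sequence below.
miR-615-3p probe: aagagggagacccaggc

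Its spots lay between 7.63 and 21.2 in MPDC-exosomes and between -4.67 and 4.38 in KPC-exosomes and did not overlap. Of the 30 spots of miR-615-3p, 1 was well above background in MPDC-exosomes and 0 were in KPC-exosomes. Because both signals lay at or below the limit of that measure, miR-615-3p is given no fold. Its seed is shared with none of the other members.

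Of the 5 members, after quantile normalization, 1 was at least 2-fold higher in KPC-exosomes (miR-10a-5p) and 2 were at least 2-fold lower (miR-10b-5p and miR-196a-5p). Of the 1077 miRNAs detected on at least 1 array, 31.5% were higher and 24.6% lower by the same rule, with miRNAs detected on 1 array set against the lowest detected signal of the other array or their own sum over all probes, whichever was higher, and of the 726 detected on both, 40.4% and 21.3%. Without normalization 0 members were higher and 3 were lower (miR-10b-5p, miR-196a-5p and miR-196b-5p), beside 10.1% and 64.8% of the 1077 and 10.2% and 58.8% of the 726. The median difference of the 4 members detected on both arrays was -2.31 without normalization and -0.46 after quantile normalization, beside -1.37 and 0.53 for the 726. With 5 members, nothing particular to the families is read from these counts. The members differed among themselves, with miR-10a-5p above and miR-10b-5p and miR-196a-5p below the median of all miRNAs.

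**Figure D3:**
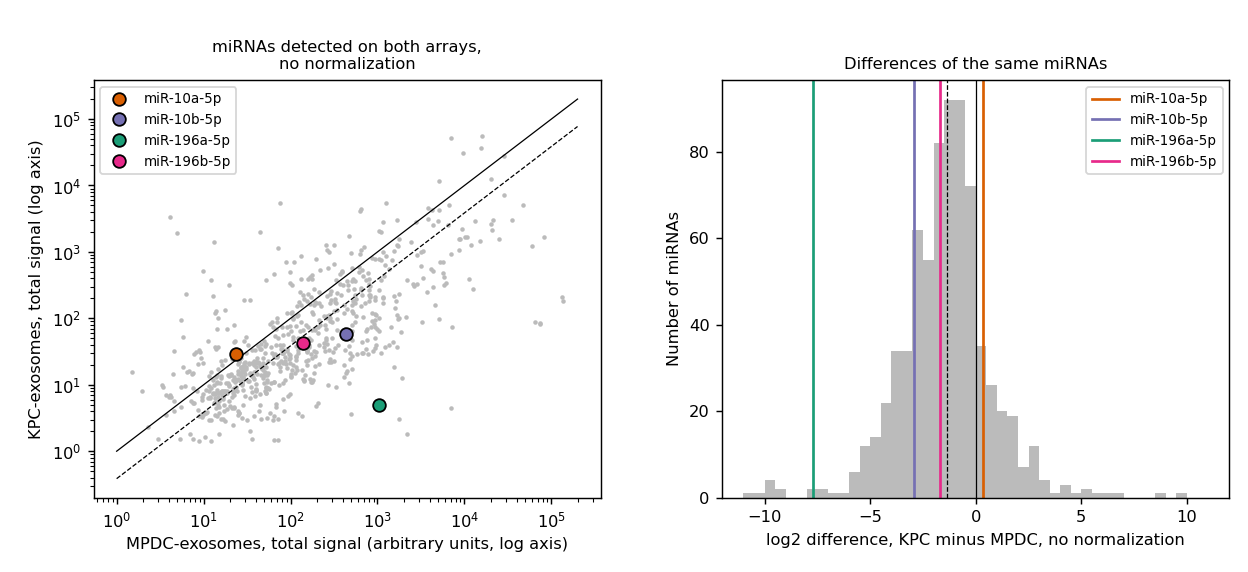
Left, total signals of the 726 miRNAs detected on both arrays, KPC-exosomes against MPDC-exosomes, without normalization on log axes, with the line of equal signals (solid) and the median difference of -1.37 (dashed). Right, the number of these miRNAs by log2 difference, with vertical lines at the members, at 0 (solid black) and at the median (dashed). miR-196a-5p lies at -7.72 in the lower tail, miR-10b-5p and miR-196b-5p lie at -2.90 and -1.71 within the bulk, and miR-10a-5p lies at 0.32.

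The other arms of the same precursors, which share their transcripts with the members, were detected in MPDC-exosomes or not at all. None of the 6 other arms was detected in KPC-exosomes. In MPDC-exosomes 3 were, namely miR-10a-3p at 13.6 ± 1.24, miR-10b-3p at 12.4 ± 1.20 and miR-196a-1-3p at 5.11 ± 1.12. Their sequences are shown because the 3p arms carry seeds that differ from those of the 5p arms and from one another.
miR-10a-3p: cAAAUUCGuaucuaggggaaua
miR-10b-3p: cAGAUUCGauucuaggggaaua
miR-196a-1-3p: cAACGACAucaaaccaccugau

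On mm9 the probes of miR-10a-3p lie at chr11:96178546-96178562, those of miR-10b-3p at chr2:74564176-74564192 and those of miR-196a-1-3p at chr11:96126544-96126560. All 4 probes of miR-10a-3p and all 4 of miR-10b-3p passed in MPDC-exosomes, and 21 and 19 of their 30 spots were well above background. For miR-196a-1-3p 1 of 2 probes passed, and 7 of 30 spots were well above background. In KPC-exosomes no spot of these 3 arms was. With each probe in KPC-exosomes set to the limit used for miR-196a-5p, miR-10a-3p was at least 1.70-fold lower, miR-10b-3p at least 1.54-fold lower and miR-196a-1-3p at least 1.28-fold lower, without normalization. None of these bounds reached 2-fold, and they leave out the scanner error. For miR-196a-1-3p the limit of 4.01 lay within 1 scanner error of its signal of 5.11 ± 1.12. By probe, its detected 18 nt probe alone was at least 2.55-fold lower, also with the scanner error left out. Its undetected 17 nt probe alone gave no bound. After quantile normalization no bound over all probes remained for any of these 3 arms. miR-196a-2-3p, miR-196b-3p and miR-615-5p were detected on neither array, and 0 of the 30 spots of each was well above background.

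Without normalization, the 5p arm of miR-10a had a log2 difference of 0.32 (scanner error 0.19). The 3p arm of miR-10a had one of -0.76 or lower, which sets them apart by at least 1.08 with the scanner errors left out. By probe, the 3p bounds ranged from -0.94 to -0.33 and the 5p differences were 0.20 and 0.59. For miR-10b the 5p arm had -2.90 and the 3p arm -0.63 or lower, so that the arms cannot be put in order. miR-196a-1-3p comes from the gene in the Hoxb cluster alone, so its detection in MPDC-exosomes bears on that gene, while the 5p signal does not tell Mir196a-1 and Mir196a-2 apart. The 3p arm of Mir196a-2 was not detectable above the scanner error.

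The miR-99 and miR-100 relatives, whose sequences resemble miR-10 with a different seed, lie outside the Hox clusters. The sequences of miR-99a-5p and miR-100-5p are printed for the comparison with miR-10a-5p.
miR-99a-5p: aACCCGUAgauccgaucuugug
miR-100-5p: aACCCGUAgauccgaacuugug

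miR-99a-5p had a signal of 95.6 ± 8.12 in KPC-exosomes and 5.52 ± 1.14 in MPDC-exosomes, and miR-100-5p 321 ± 24.2 and 19.4 ± 2.08. Their log2 differences were 4.11 and 4.05 without normalization and 7.86 and 5.88 after quantile normalization, higher in KPC-exosomes under both. In MPDC-exosomes miR-99a-5p rested on 1 of 2 probes, with 11 of 30 spots well above background, and quantile normalization added 3.75 to its difference, against 1.77 to 1.90 for the 4 members. Against the limit for MPDC-exosomes miR-99a-5p was at least 12.2-fold higher in KPC-exosomes without normalization. miR-99b-5p had 199 ± 14.7 and 323 ± 24.5, and its difference turned from -0.70 to 1.01. Thus miR-99a-5p and miR-100-5p differed in the direction opposite to miR-10b-5p.

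Of all miRNAs detected on both arrays, the 2 nearest to each member in the pair of normalized log2 signals were listed, with the distance on the log2 scale over the 2 arrays. Nearest to miR-196a-5p were miR-200c-3p, a miRNA of epithelial cells, at a distance of 0.11, with a signal of 4.58 ± 1.04 in KPC-exosomes and 991 ± 83.4 in MPDC-exosomes, and miR-669n at 0.98. Nearest to miR-10b-5p were miR-5099 at 0.23 and miR-7056-5p at 0.33. Nearest to miR-10a-5p were miR-7224-3p at 0.11 and miR-7238-5p at 0.14, and nearest to miR-196b-5p were miR-6236 at 0.039 and miR-1198-5p at 0.10. With 2 arrays, such a likeness describes these values only.

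The sum of each marker list was lower in KPC-exosomes, all given without normalization. Signals of 591 of the 726 miRNAs detected on both arrays were lower there too. The 7 epithelial miRNAs summed to 98.8 in KPC-exosomes, where miR-203-3p and miR-205-5p were not detected, and to 1781 in MPDC-exosomes. The 6 mesenchymal miRNAs summed to 0 in KPC-exosomes, where none was detected, and to 293 in MPDC-exosomes, where all were, with miR-199a-3p the brightest at 156. Among the 11 pluripotent-cell miRNAs the brightest was miR-292a-3p, at 180 and 135570, and miR-302a-3p, miR-302b-3p, miR-302c-3p, miR-302d-3p and miR-367-3p were not detected in KPC-exosomes. The 6 haematopoietic miRNAs summed to 265 and 426, with 4 detected on each array. The brightest, miR-142a-3p, was higher in KPC-exosomes, at 188 against 29.1. It was 1 of 3 in this list that both arrays detected. The middle one of these 3 log2 differences was -2.52, so that the others were lower in KPC-exosomes. Of the pancreas list, 1 of 5 was detected on each array, and the sums were 60.9, from miR-217-5p, and 1190, from miR-148a-3p. The part of these markers in the differences of miR-196a-5p and miR-10b-5p was not tested.

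The order of the differences among the 4 members detected on both arrays, from miR-196a-5p over miR-10b-5p and miR-196b-5p to miR-10a-5p, was kept under quantile normalization and without normalization. Neighbours in that order were apart by more than their scanner errors, which leaves out the variation between preparations.

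**Figure D4:**
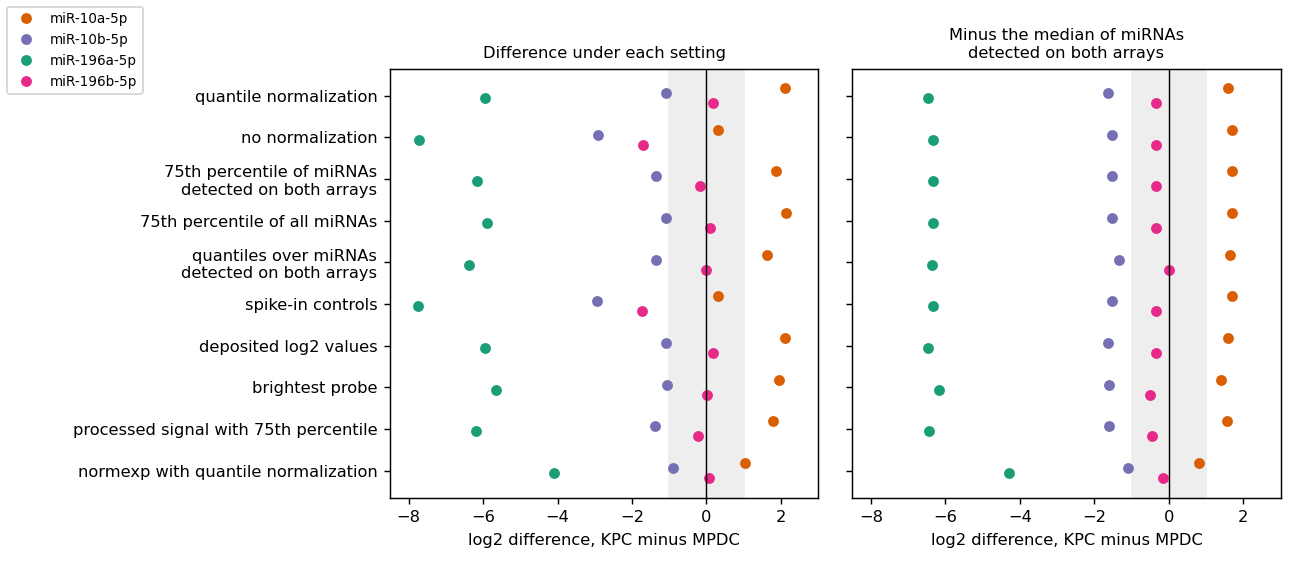
Log2 difference, KPC-exosomes minus MPDC-exosomes, of the 4 members detected on both arrays under quantile normalization and 9 alternative settings (rows), as computed (left) and minus the median of all miRNAs that both arrays detected (right). The grey band spans less than 2-fold. Relative to the median miR-196b-5p stays within the band, from -0.52 to -0.0031 over the alternatives, and miR-196a-5p lies farthest out, from -6.48 to -4.31.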

How the data were processed

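miRNAs of exosomes from KPC and MPDC cells were measured on 1 array each, of 1 slide. The authors deposited Feature Extraction output, which holds linear intensities and their errors for each probe, with the background subtracted (version 10.7.1.1 per the file headers, 9.1 per the submitters' notes). The authors also deposited log2 values normalized in GeneSpring 13.1 by a method not given in the sources used here. Quantile normalization with tied values averaged, with a floor of 0.1 for undetected miRNAs and with 21 control features, gave values within 1.11e-05 of these log2 values. By forcing equal distributions it removes any difference in total miRNA. Values without normalization are therefore given beside it.

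No test was made with 1 array per group, and the number of arrays limits the precision. In counts of miRNAs past a fold, a miRNA detected on 1 array was set against the lowest detected signal of the other array or its own sum over all probes, whichever was higher. This is a laxer limit than the one per probe, from probes well above background, that is used for each fold given as "at least". That limit, the differences relative to the median and the comparisons within families were chosen after seeing the data. The members, lists and naming rule (the members, their other arms, the miR-99 and miR-100 relatives, the 2 nearest miRNAs, spike-ins and the brightest marker of a list) were chosen with earlier results of these data known. Epithelial, pancreas, mesenchymal, pluripotent and haematopoietic lists were used. All 5 members, 6 other arms and 3 relatives matched RefSeq (GRCm38.p6). The normalization was run on simulated data with known changes placed in brighter miRNAs only, and no result given here rests on that run. Computation was done with limma 3.58.1 in R 4.3.3 (normexp alone) and with Python 3.11.15, pandas 2.3.3, numpy 2.4.6 and matplotlib 3.10.9. The study's cell culture, RT-qPCR and immunoblot measurements were not analysed here.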

Additional observations from a re-analysis of the deposited data

How the results depend on the processing

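Over 9 alternative settings, the difference of miR-10a-5p stayed positive and those of miR-10b-5p and miR-196a-5p negative, while miR-196b-5p was negative in 5 and positive in 4. The differences (log2, KPC-exosomes minus MPDC-exosomes) of miR-10a-5p, miR-10b-5p, miR-196a-5p and miR-196b-5p were 0.32, -2.90, -7.72 and -1.71 without normalization, with 0 members at least 2-fold higher. Spike-in scaling gave 0.30, -2.93, -7.74 and -1.74, also with 0 higher. Quantile normalization of the jointly detected miRNAs alone gave 1.64, -1.34, -6.37 and -0.0049. Scaling by the 75th percentile of those miRNAs gave 1.87 for miR-10a-5p, -1.36 for miR-10b-5p and -0.17 for miR-196b-5p, and the processed signal with that scaling gave 1.80, -1.37 and -0.23. With the brightest probe miR-196a-5p was at -5.64 and its difference from miR-196b-5p at -5.66. With normexp correction, an offset of 50 and quantile normalization, miR-10a-5p was at 1.03, miR-10b-5p at -0.89 and miR-196a-5p at -4.10, the family differences were -1.91 for miR-10 and -4.16 for miR-196, and 1 member was at least 2-fold lower. A 4-fold threshold also left 1 lower. The offset adds to dim and bright signals alike and so shrinks differences of dim miRNAs. The 75th percentile taken over all miRNAs, the deposited values, undetected signals at the floor of 0.1 (3 members lower), detection on both arrays and a difference above 2 scanner errors moved no count of members by over 1.5 times. Relative to the median, miR-10a-5p ranged from 0.82 to 1.69 and miR-10b-5p from -1.63 to -1.09. No paired analysis was possible because each group has 1 array, which also leaves no replicate to leave out. The signal over background limits miR-196a-5p in KPC-exosomes and miR-615-3p on both arrays.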
